A study of Mus musculus with 29 samples.

Results

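The homeostatic microglia signature genes P2ry12, P2ry13, Gpr34, Tmem119, Siglech, Olfml3, Slc2a5, Cst3 and Selplg were followed across every fraction of the TRAP-RNAseq data from NuTRAP mouse brain. They were taken by gene symbol and are 9 of the 36172 gene rows in the deposited matrix, with 1 row for each symbol. Each member passed the filter on low counts (above 20 in all libraries of at least 1 group compared) in every comparison, but some passed through 1 group only, as given beside the results.

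Microglia are the resident macrophages of the brain, and in the healthy adult they hold a surveying state that is kept up by CSF1R and TGF-beta signalling. The genes that set this state apart from other macrophages include receptors that read extracellular nucleotides and lipids, adhesion molecules and secreted factors. Several of them are known to be turned down when microglia respond to injury or disease, which makes them a common reference for undisturbed microglia. Cst3 belongs to the same signature but is also known to be made in quantity by astrocytes.

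NuTRAP is an allele that, after cre recombination, makes an EGFP-tagged ribosomal protein L10a, so that ribosomes of the targeted cells and the RNA on them can be pulled from a brain homogenate with an antibody against GFP (TRAP). Brains of Cx3cr1-Cre/Ert2+; NuTRAP+ mice (Cx3cr1-NuTRAP, microglia) and Aldh1l1-Cre/Ert2+; NuTRAP+ mice (Aldh1l1-NuTRAP, astrocytes) were used, and every mouse carried both alleles in heterozygous form and had received tamoxifen on 5 consecutive days at about 3 months of age. Bead-bound RNA is called the positive fraction, unbound RNA the negative fraction, cleared homogenate the input, and RNA extracted directly from brain the whole tissue. Counts were available for 6 inputs, 6 negative and 6 positive fractions and 5 whole tissues of Cx3cr1-NuTRAP mice, and for 3 Aldh1l1-NuTRAP mice in both bound and unbound RNA, with libraries of the same mouse number taken from the same animal. In the Cx3cr1-NuTRAP line the cre replaces part of the Cx3cr1 locus, its promoter is also active in macrophages at brain borders and in blood monocytes, and brains were taken weeks after tamoxifen so that labelled blood cells could turn over. The labels give no cre-negative or tamoxifen-free group, and no sex for single mice.

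Total counts per library ran from 15486605 to 26857866 in the Cx3cr1-NuTRAP inputs and fractions, from 8782235 to 25137834 in the Aldh1l1-NuTRAP fractions, and from 4260949 to 25026611 in whole tissue, where the lowest value was that of mouse 210. Levels below are CPM (counts scaled to a library total of 1000000), and a level per kilobase is used wherever genes are compared with each other. Fold changes are from edgeR's two-sided quasi-likelihood test, on counts scaled by the TMM method and adjusted over all genes tested by the Benjamini-Hochberg method. The microglia and macrophage markers were Cx3cr1, Csf1r, Aif1, C1qa, C1qb, C1qc, Itgam and Tyrobp. They summed to between 2307 and 5722 CPM in the 6 Cx3cr1-NuTRAP positive fractions and to between 265 and 282 CPM in the inputs. The labelled cell type was thus marked by its own genes. Markers of other brain cells were present as well. Neuron markers summed to between 5663 and 8712 CPM in these positive fractions and to between 7839 and 8210 CPM in the inputs. Astrocyte markers summed to between 2798 and 4356 CPM in the positive fractions and to between 4498 and 4873 CPM in the inputs. The part of these cells in the members' values was not tested. Monocyte and neutrophil markers summed to at most 5.43 CPM and lymphocyte markers to at most 6.57 CPM in any of these positive fractions. The 10 markers of border-associated macrophages summed to between 165 and 510 CPM there and to between 27.4 and 48.7 CPM in the inputs, and the 4 of them that passed the filter on low counts in both groups were called higher, as were the 6 that passed through the positive fractions alone, where they are high. Their part in the members' values was not tested. In bulk RNA such as this, fewer cells of a type and less RNA per cell cannot be told apart.

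The 9 genes lie on 6 chromosomes of mm10. P2ry12 (Entrez 70839, chromosome 3, 59216271 to 59262831, minus strand) and P2ry13 (Entrez 74191, chromosome 3, 59207894 to 59210882, minus strand) are neighbours 5388 bp apart with no other row starting between them, and both sit inside Med12l, which is read from the opposite strand. Gpr34 (Entrez 23890, chromosome X, 13632769 to 13640858, plus strand) sits inside Cask in the same manner. Tmem119 (Entrez 231633, chromosome 5, 113793729 to 113800352, minus strand) and Selplg (Entrez 20345, chromosome 5, 113817798 to 113830501, minus strand) are 17445 bp apart, with Gm19931 between them. Siglech (Entrez 233274) is at 55768178 to 55778833 on chromosome 7, Olfml3 (Entrez 99543) at 103735394 to 103738001 on chromosome 3, Slc2a5 (Entrez 56485) at 150119344 to 150144168 on chromosome 4 and Cst3 (Entrez 13010) at 148871732 to 148875468 on chromosome 2.

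RefSeq promoter sequences of build GRCm38.p6 were matched for 6 of the 9 members by symbol. The 250 bases before the start are shown for the neighbours P2ry12 and P2ry13, both higher in microglial and lower in astrocytic ribosome-bound RNA, and for Cst3, higher in both. The start is that of RefSeq, which for P2ry12 and Cst3 lies upstream of the gene ends printed above. The sequences are written 5′ to 3′ along the strand of the gene, and capitals mark GAGGAA, the core of the PU box to which the macrophage factor PU.1 is known to bind.
P2ry12, chr3:59262986-59263235, minus strand: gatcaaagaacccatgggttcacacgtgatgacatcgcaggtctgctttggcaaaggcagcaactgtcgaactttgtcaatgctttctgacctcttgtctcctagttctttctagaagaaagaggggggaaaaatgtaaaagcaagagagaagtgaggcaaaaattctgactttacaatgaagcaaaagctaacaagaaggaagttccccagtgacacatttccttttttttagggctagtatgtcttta
P2ry13, chr3:59210883-59211132, minus strand: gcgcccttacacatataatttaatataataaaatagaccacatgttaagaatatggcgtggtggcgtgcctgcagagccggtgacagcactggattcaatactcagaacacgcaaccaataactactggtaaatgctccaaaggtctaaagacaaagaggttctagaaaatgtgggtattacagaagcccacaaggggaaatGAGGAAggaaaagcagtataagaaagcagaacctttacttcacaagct
Cst3, chr2:148875513-148875762, minus strand: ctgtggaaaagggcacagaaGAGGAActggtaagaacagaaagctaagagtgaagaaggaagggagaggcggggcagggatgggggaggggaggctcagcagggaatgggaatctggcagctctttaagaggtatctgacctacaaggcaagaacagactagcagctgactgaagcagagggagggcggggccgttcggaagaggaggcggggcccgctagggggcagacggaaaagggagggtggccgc
GAGGAA, searched on both strands, was found in 2 of the 6 members, P2ry13 with its first base at -48 and Cst3 with its first base at -230 from the RefSeq start, and in 23.25% of all 32851 promoters of the same length. CAGACA, letters of a SMAD-like motif, was found in Siglech and Slc2a5 and in 17.13% of all promoters. GAGGAAGT, the letters of an interferon regulatory factor-like motif and TATAAA were found in 0 of the 6 members, against 2.441%, 2.977% and 12.37% of all promoters. A match is only a run of letters, and 6 promoters are too few to set against these shares.

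All 9 members were higher in the positive fraction of Cx3cr1-NuTRAP mice than in the input of the same animals, and 8 of them were raised 8.83 to 12.8-fold while Cst3 was raised 4.36-fold. In this comparison 23.3% of the 13838 genes tested were called higher and 25.6% lower. Oligodendrocyte markers were lower for 6 of 7 genes (median log2 fold change -0.63) and oligodendrocyte precursor markers for 3 of 3 (-0.92). Astrocyte markers were lower for 5 of 9 (-0.38) and neuron markers for 1 of 9 (-0.05). Endothelial markers were higher for 2 of 6 (0.17). The lowest positive fraction lay above the highest input for each of the 9 genes, as it did for 10.0% of all genes tested. The values of each gene are given by role below, in the order purinergic and lipid receptors, surface molecules and the transporter, and secreted proteins.

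**Figure D1:**
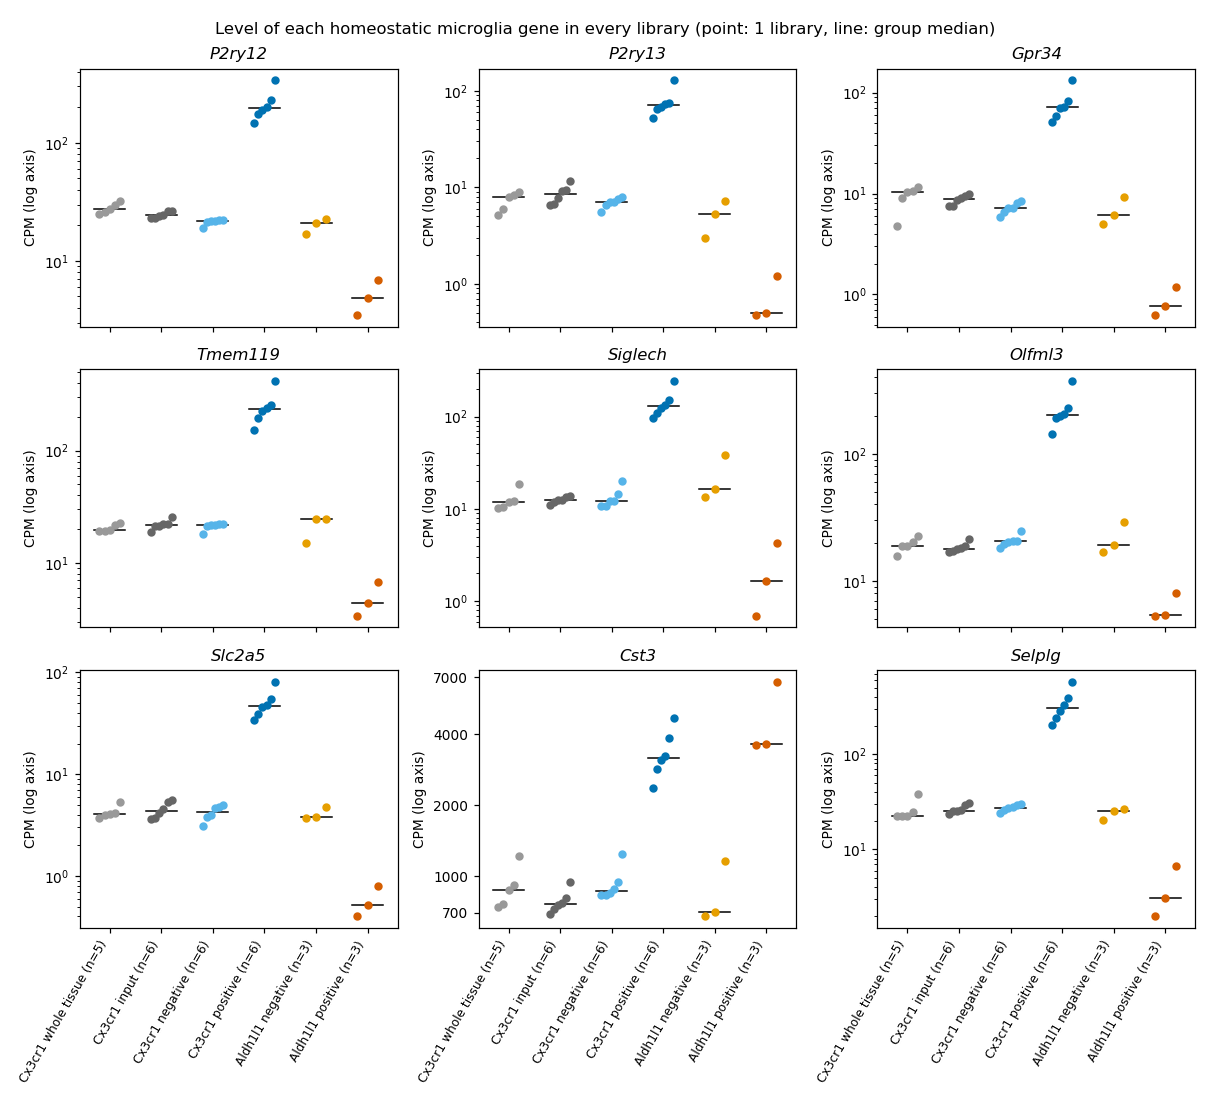
Level of each member in CPM on a log axis (each panel has its own range), with 1 point for every library and a line at the group median. In 8 panels the 6 Cx3cr1 positive fractions stand above and the 3 Aldh1l1 positive fractions below all other libraries, and in the Cst3 panel the positive fractions of both lines stand above the rest, between 2368 and 6711 CPM.

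P2ry12 encodes the ADP receptor that steers microglial processes towards damaged cells. In the 6 inputs it had 23.0 CPM at the lowest, 24.3 at the median and 26.4 at the highest. In the 6 positive fractions it had 148 CPM at the lowest, 195 at the median and 338 at the highest. The groups did not overlap, and the log2 fold change was 3.14 (SE 0.18, adjusted p = 2.72e-08 by edgeR, n = 6 and 6). P2ry13, another ADP receptor of the same subfamily, had between 52.9 and 129 CPM in the positive fractions (median 70.9), and between 6.53 and 11.5 CPM in the inputs with a median of 8.50. The log2 fold change of P2ry13 was 3.20 (SE 0.22, adjusted p = 1.27e-07 by edgeR, n = 6 and 6). The top positive fraction of P2ry13 was mouse 194 at 129 CPM, well above the 74.6 CPM of the next mouse. Gpr34, a receptor for lysophosphatidylserine, had between 51.3 and 132 CPM in the positive fractions (median 71.2), and between 7.45 and 9.85 CPM in the inputs with a median of 8.79. Its log2 fold change was 3.19 (SE 0.21, adjusted p = 8.32e-08 by edgeR, n = 6 and 6). The fold changes of the 3 receptors differed by less than their standard errors. The genes that host these receptors on the other strand were lower in the positive fraction, with log2 fold changes of -0.48 for Med12l (adjusted p = 0.00396 by edgeR) and -0.22 for Cask (adjusted p = 0.0176 by edgeR). Against the negative fraction neither was called (-0.18 and -0.13). Within mice the ratio of positive fraction to input ran from 0.551 to 1.03 for Med12l and from 0.778 to 0.908 for Cask.

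Tmem119 encodes a membrane protein that marks microglia but not most other macrophages. It had 18.9 CPM at the lowest, 21.7 at the median and 25.8 at the highest in the inputs, and 152, 233 and 418 CPM in the positive fractions. Against input it had a log2 fold change of 3.52 (SE 0.22, adjusted p = 5.12e-08 by edgeR, n = 6 and 6). Siglech, a sialic acid binding lectin, had between 96.2 and 244 CPM in the positive fractions (median 129), against 11.0 to 13.6 CPM in the inputs with a median of 12.6. Its log2 fold change was 3.54 (SE 0.21, adjusted p = 3.83e-08 by edgeR, n = 6 and 6). Selplg, which encodes the P-selectin ligand PSGL-1, had the largest change of the 9, from 23.5 to 31.1 CPM in the inputs (median 25.6) to between 204 and 581 CPM in the positive fractions (median 306), a log2 fold change of 3.68 (SE 0.24, adjusted p = 9.24e-08 by edgeR, n = 6 and 6). Slc2a5 encodes the fructose transporter GLUT5 and was the least abundant member, at 3.66 to 5.55 CPM in the inputs (median 4.36) and 34.0 to 81.3 CPM in the positive fractions (median 46.8). Its log2 fold change was 3.50 (SE 0.21, adjusted p = 4.00e-08 by edgeR, n = 6 and 6), which is within the range of the more abundant members. The gap between Selplg and Siglech was smaller than the standard error of either.

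Olfml3 encodes a secreted glycoprotein of the olfactomedin family. It had between 17.0 and 21.3 CPM in the inputs with a median of 18.0, and between 144 and 375 CPM in the positive fractions (median 203). For Olfml3 the log2 fold change was 3.62 (SE 0.20, adjusted p = 2.75e-08 by edgeR, n = 6 and 6). Cst3 encodes cystatin C, a secreted inhibitor of cysteine proteases. It had 688 CPM at the lowest, 761 at the median and 943 at the highest in the inputs, and 2368, 3177 and 4698 CPM in the positive fractions. The groups did not overlap, and the log2 fold change of 2.12 (SE 0.15, adjusted p = 7.72e-08 by edgeR, n = 6 and 6) was the smallest of the 9 genes.

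By size of fold change, the 8 members other than Cst3 held places between 40 (Selplg) and 143 (P2ry12) among the 13838 genes tested, and Cst3 place 341. The same mice gave the same picture against the other references. Against the negative fraction, where 12.8% of 13776 genes were called higher, 9 of 9 members were called higher with log2 fold changes of 3.36 to 3.66 for the 8 and 1.88 (SE 0.16) for Cst3. Against whole tissue, 27.5% of 13470 genes were called higher, and 9 of 9 members were called higher. The log2 fold changes were 2.97 to 3.75 for the 8 and 1.93 (SE 0.19) for Cst3. Gpr34 passed the filter there through the positive fractions alone, where it is high, which favours a higher call. These comparisons share the positive fractions and are therefore not independent of each other.

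**Figure D2:**
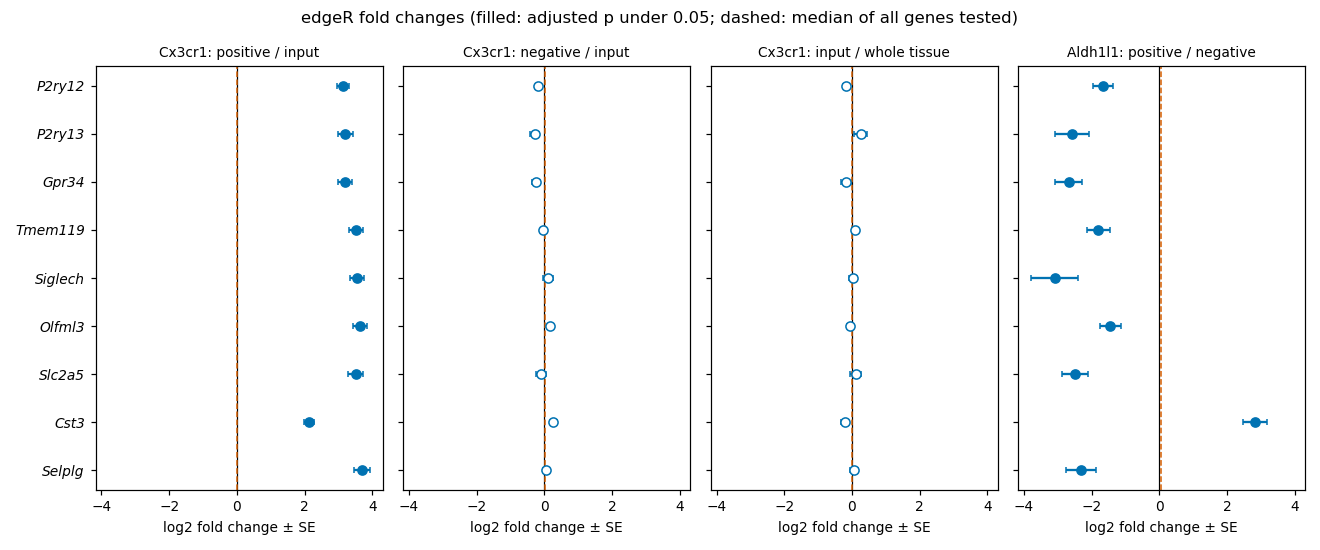
Log2 fold change with its standard error for each member in 4 comparisons, on the same axis; filled points had an adjusted p under 0.05 and the dashed line is the median of all genes tested. The members lie between 2.12 and 3.68 in the Cx3cr1-NuTRAP positive fraction against input, near 0 among the unbound and whole preparations, and between -3.09 and -1.45 in the Aldh1l1-NuTRAP positive fraction against negative fraction, except Cst3 at 2.81.

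Whether Cst3 was enriched less than the other members was tested within mice, as the difference in log2 ratio of positive fraction to input (edgeR log2 CPM with a prior count of 2). The ratio of Cst3 averaged 2.09 on the log2 scale, and the other 8 members lay above it by 0.99 (P2ry12) to 1.49 (Selplg). Each of the 8 differences had the same sign in 6 of 6 mice. An exact two-sided permutation test that flips signs over mice gave p = 0.03125 in each case, also after Benjamini-Hochberg adjustment over the 8, which is the smallest p that 6 mice allow. Against the negative fraction in place of input the differences were 1.44 to 1.71, again in 6 of 6 mice. Cst3 was singled out as the member with known expression in other brain cells and with earlier results of these data in view. The lowest gap in any mouse was 0.54, between P2ry13 and Cst3.

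The members differed in level far more than in enrichment. Per kilobase of exon, the mean level in the Cx3cr1-NuTRAP positive fraction was 4525 ± 1107 CPM per kb for Cst3, 182 ± 72.9 for Selplg, 129 ± 45.6 for Olfml3, 119 ± 43.9 for Tmem119, 89.0 ± 27.8 for P2ry12, 46.6 ± 17.2 for Siglech, 41.1 ± 15.2 for Gpr34, 30.6 ± 10.5 for P2ry13 and 16.3 ± 5.38 for Slc2a5 (SD, n = 6). Among these, Cst3 stood apart, and every other gene overlapped its neighbours in this order. In the inputs the order of means was nearly the same, from Cst3 at 1052 ± 121 and Selplg at 14.5 ± 1.55 to Slc2a5 at 1.45 ± 0.26 CPM per kb (SD, n = 6), with Gpr34 before Siglech. There the spread was small enough to set P2ry12 apart from Gpr34 and P2ry13 apart from Slc2a5, while Olfml3, Tmem119 and P2ry12 overlapped each other in turn, as did Gpr34, Siglech and P2ry13. Exon lengths were those of the GENCODE principal transcripts inside the span given in the matrix, so levels per kilobase are approximate. The ranges of Selplg and Olfml3 in the inputs came as close as 12.7 and 12.3 CPM per kb, and as the spans of both genes differ between the matrix and GENCODE, they are not counted as apart.

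The positive fractions varied between mice as a block. Mouse 194 was the highest and mouse 209 the lowest of the 6 for 9 of 9 members. The summed CPM of the 8 members other than Cst3 ran from 883 (mouse 209) to 2298 (mouse 194) in the positive fractions, 1373 ± 494 (SD, n = 6), but only from 124 to 133 in the inputs, 126 ± 3.68 (SD, n = 6). Other lists moved with this: in mouse 194 the oligodendrocyte markers summed to 1328 CPM, against 2832 to 3501 CPM in the other 5 positive fractions, and border-associated macrophage markers to 510 CPM, against 165 to 266 CPM. In the same mouse microglia and macrophage markers summed to 5722 CPM, against 2307 to 3634 CPM, and choroid plexus and ependyma markers to 226 CPM, against 523 to 1050 CPM, while astrocyte and neuron markers were at their lowest of the 6, at 2798 and 5663 CPM. The part of these lists in the members' values was not tested. Without mouse 194, 9 of 9 members were still called higher in each of the 3 comparisons of the positive fraction.

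**Figure D3:**
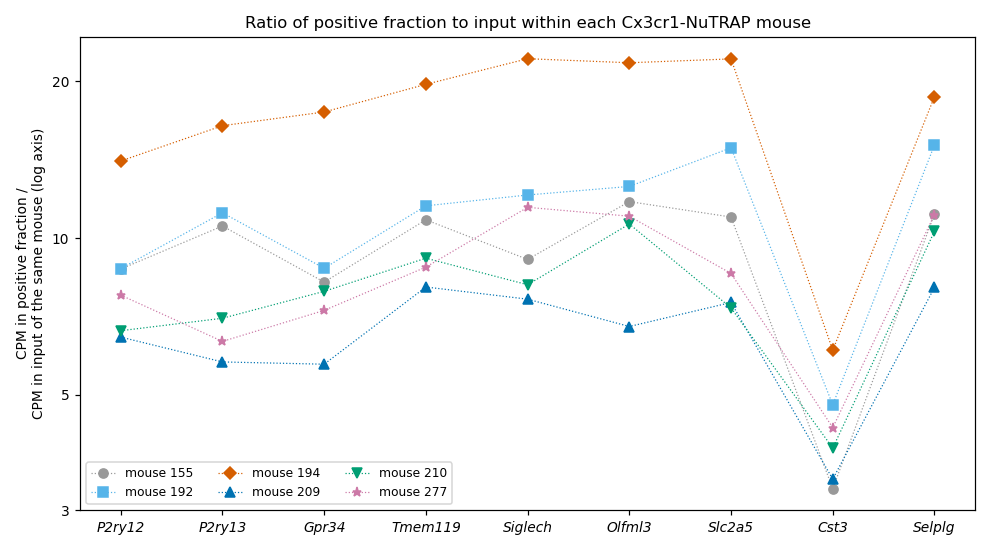
Ratio of CPM in the positive fraction to CPM in the input of the same animal (log axis), for the 6 Cx3cr1-NuTRAP mice and the 9 members. Mouse 194 lies highest for each gene and Cst3 lowest in each mouse, between 3.30 and 6.09.

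In the positive fractions the make-up of the signature varied less between mice than its total. Within the summed CPM of the 8 members, Gpr34 made up 5.67% ± 0.14, Slc2a5 3.71% ± 0.13, P2ry13 5.68% ± 0.40, Siglech 10.4% ± 0.47, P2ry12 15.8% ± 0.70, Olfml3 16.4% ± 0.79, Tmem119 18.0% ± 0.58 and Selplg 24.3% ± 1.64 in the positive fractions (SD, n = 6). In the inputs the shares were 6.87% ± 0.67 for Gpr34, 3.57% ± 0.59 for Slc2a5, 6.74% ± 1.35 for P2ry13, 9.94% ± 0.90 for Siglech, 19.5% ± 1.30 for P2ry12, 14.6% ± 1.31 for Olfml3, 17.4% ± 1.34 for Tmem119 and 21.3% ± 2.52 for Selplg (SD, n = 6), so there the shares varied more than in the positive fractions and the total varied little. P2ry12 had a lower share in each positive fraction (14.7% to 16.8%) than in any input (18.4% to 21.2%), and so had Gpr34 (5.48% to 5.80% against 5.98% to 7.59%). The shares of the other 6 genes overlapped between the groups. Across the 29 libraries, Pearson's r of log2(CPM + 1) was between 0.94 and 0.99 in the 28 pairs among these 8 genes and between 0.28 and 0.44 in the 8 pairs with Cst3. These values describe libraries that share fraction, line and mouse.

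**Figure D4:**
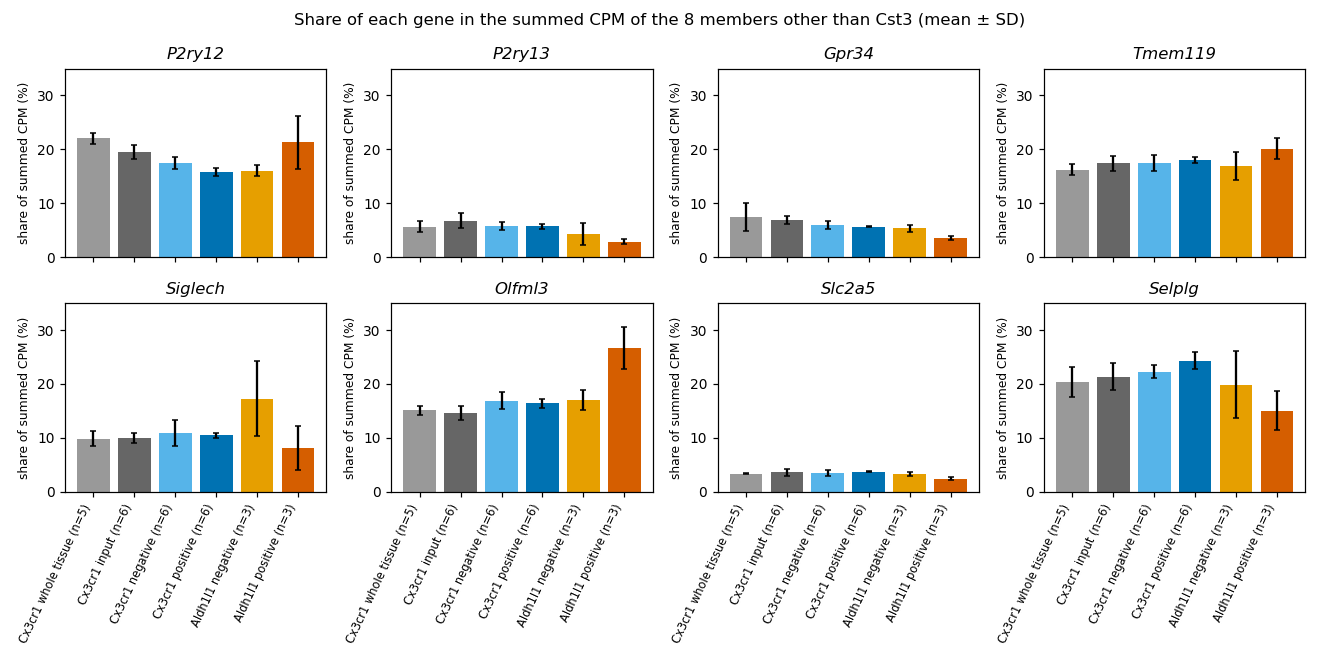
Share of each gene in the summed CPM of the 8 members other than Cst3, as mean and SD for each group. Tmem119 has 18.0% in the Cx3cr1 positive fraction and 17.4% in the input, P2ry12 goes from 22.0% in whole tissue to 15.8% in the Cx3cr1 positive fraction, and Olfml3 has its highest share in the Aldh1l1 positive fraction, at 26.7%.

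The members stayed in the unbound RNA at levels near those of the input. In the negative fraction against input, where 1.41% of 13748 genes were called higher and 4.70% lower, 0 of 9 members were called by edgeR, 4 had an unadjusted p under 0.05 (P2ry12 and Gpr34 on the lower side, Olfml3 and Cst3 on the higher side, with 31.8% of all genes under that p), and DESeq2 called 1, P2ry12, lower, with 5.55% of all genes higher and 9.36% lower by that tool, so that 1 of 9 is near its background. The shares over all genes rest on single mice here: without mouse 192, 194, 209, 210 or 277, edgeR called 0 to 3 genes higher and 0 lower. P2ry12 had 18.9 CPM at the lowest, 21.8 at the median and 22.1 at the highest in the 6 negative fractions, all below the lowest input at 23.0 CPM. Its log2 fold change was -0.19 (SE 0.06, adjusted p = 0.0697 by edgeR), and groups without overlap on the lower side were found for 2.71% of all genes tested. With the mouse as replicate block, P2ry12 fell by 0.19 on the log2 scale (adjusted p = 0.0206 by edgeR), P2ry13 fell by 0.27 (adjusted p = 0.0445 by edgeR) and Cst3 was higher by 0.25 (adjusted p = 0.00121 by edgeR), so the pairing by animal changed the call of 3 members. Over all genes that block raised the share called to 17.7% higher and 19.5% lower, and 3 of 9 members is near that background. The ratio of negative fraction to input was below 1 in 6 of 6 mice for P2ry12 and Gpr34 and above 1 in 6 of 6 mice for Cst3. Without mouse 155, P2ry12, Gpr34 and Cst3 were called, when 12.8% of all genes were called higher and 14.8% lower. In size, no member's negative fraction departed from input by more than 0.29 on the log2 scale in the unblocked fit.

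Inputs were also set against whole tissue, where Gpr34 passed the filter through the inputs alone. Of the 13608 genes tested, 15.7% were called higher and 14.6% lower in input than in whole tissue, and 0 of 9 members were called by edgeR, 1 had an unadjusted p under 0.05 (P2ry12, log2 fold change -0.19), against 41.4% of all genes, and DESeq2 called 0. The 5 whole tissues had 25.1, 25.8, 27.3, 29.8 and 32.0 CPM of P2ry12 and 739, 764, 871, 921 and 1215 CPM of Cst3, in both cases with mouse 210 the highest. Mouse 210, with the fewest counts of all libraries, was the highest whole tissue for 8 of 9 members and the lowest for Gpr34 at 4.78 CPM, from 20.4 counts. Without that mouse Selplg was called higher in input, by 0.23 (adjusted p = 0.0383 by edgeR), as were 19.4% of all genes, and with only its whole tissue library left out 9 of 9 members were still called higher in the positive fraction than in whole tissue.

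In the Aldh1l1-NuTRAP line cre is aimed at astrocytes, and the members other than Cst3 were depleted from the positive fraction. Astrocyte markers were higher there for 9 of 9 genes, summing to between 16487 and 24211 CPM against 3105 to 4014 CPM in the negative fractions. Markers of several other cell types fell along with the members. Neuron markers were lower for 9 of 9 genes (median log2 fold change -1.59) and oligodendrocyte markers for 6 of 7 (-2.53). Oligodendrocyte precursor markers were lower for 3 of 3 (-2.18) and microglia and macrophage markers for 8 of 8 (-2.42). Border-associated macrophage markers were lower for 2 of 4 (-1.41). Endothelial markers were called for 0 of 6 (-0.17). Pericyte and smooth muscle markers were higher for 2 of 6 and lower for 1 (-0.42). In this comparison 24.8% of 13319 genes were called lower and 26.8% higher in the positive than in the negative fraction, and 8 members were called lower and Cst3 higher. Of the 8, P2ry12, Tmem119, Olfml3 and Selplg passed the filter in both groups, while P2ry13, Gpr34, Siglech and Slc2a5 passed through the negative fractions alone, where they are high, which favours a lower call. The 8 had no overlap between the groups, as was so on the lower side for 41.6% of all genes tested. When counts were scaled to library totals in place of TMM, the median of all genes moved to -0.31 in this comparison, and the 8 genes stayed lower and Cst3 higher.

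The receptors were low in the astrocyte fraction. P2ry12 had 6.94, 3.49 and 4.81 CPM in the positive fractions of mice 290, 293 and 294 and 22.8, 20.8 and 16.9 CPM in their negative fractions. The log2 fold change was -1.65 (SE 0.29, adjusted p = 0.00293 by edgeR, n = 3 and 3). P2ry13 had 1.20, 0.476 and 0.493 CPM in the positive fractions of the same mice and 2.96, 7.16 and 5.33 CPM in the negative fractions, and Gpr34 had 1.17, 0.762 and 0.628 CPM and 9.34, 6.18 and 5.04 CPM. Their log2 fold changes were -2.59 (SE 0.49) and -2.68 (SE 0.40), with adjusted p = 0.00394 and 0.00125 by edgeR. The positive fractions of P2ry13 rested on 10 to 14.2 counts and those of Gpr34 on 14 to 16 counts, which limits the precision of both.

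Siglech had the lowest fitted fold change, with 4.32, 1.64 and 0.700 CPM in the positive fractions of mice 290, 293 and 294 and 38.6, 16.5 and 13.4 CPM in their negative fractions. The log2 fold change was -3.09 (SE 0.70, adjusted p = 0.00833 by edgeR, n = 3 and 3), with the largest error of the members. Mouse 290 was far above the other mice in both fractions, but within mice the ratio of positive to negative fraction stayed between 0.0521 and 0.112. The median of these ratios was 0.0995, and that of P2ry13 was 0.0925, so the order of the lowest genes depends on the measure. Tmem119 changed by -1.81 (SE 0.33), Slc2a5 by -2.49 (SE 0.38) and Selplg by -2.32 (SE 0.43) on the log2 scale, with adjusted p = 0.00341, 0.00134 and 0.00347 by edgeR. Mouse 290 stood apart for Selplg and P2ry13, with ratios of positive to negative fraction of 0.325 and 0.404, against 0.121 and 0.0756 for Selplg and 0.0665 and 0.0925 for P2ry13 in the other mice. Without mouse 290 the log2 fold change was -3.06 for Selplg and -3.37 for P2ry13. Slc2a5 was at 0.404 to 0.804 CPM in the positive fractions, from 9 to 11 counts. Olfml3 was the least depleted of the 8, with 8.10, 5.35 and 5.44 CPM in the positive fractions and 29.2, 19.1 and 16.8 CPM in the negative fractions and a log2 fold change of -1.45 (SE 0.30, adjusted p = 0.00568 by edgeR).

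Cst3 moved the other way, with 6711, 3607 and 3648 CPM in the positive fractions of mice 290, 293 and 294 and 1155, 703 and 676 CPM in their negative fractions. The lowest positive fraction was above the highest negative fraction, as for 21.4% of all genes tested, and the ratio within mice was 5.13 to 5.81. Its log2 fold change was 2.81 (SE 0.35, adjusted p = 0.000607 by edgeR, n = 3 and 3), or 7.01-fold on the TMM scale. Choroid plexus and ependyma markers moved with it, with 6 of 6 genes higher, a median log2 fold change of 2.35, and sums of 2938 to 3409 CPM in the positive against 492 to 655 CPM in the negative fractions, and the astrocyte markers rose as given above. Mouse 290 had the highest positive fraction for 9 of 9 members and also the fewest counts of the 3. Its microglia and macrophage markers summed to 74.5 CPM, against 27.2 and 31.4 CPM in the other 2 mice. Its astrocyte markers had the lowest sum of the 3, at 16487 CPM against 24211 and 22691 CPM. Its choroid plexus and ependyma markers had the highest, at 3409 CPM against 2938 and 3112 CPM. The part of these values in the result was not tested. Without mouse 293, 4 of the 8 members kept their call, and P2ry13, Tmem119, Siglech and Olfml3 had adjusted p between 0.0516 and 0.0623, with log2 fold changes of -2.04, -1.62, -3.06 and -1.43, and the share of all genes called lower was 12.6%. Without mouse 294, P2ry13 lost its call (-2.33, adjusted p = 0.0534), and 12.0% of all genes were called lower.

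The positive fractions of both lines were then set against each other. Of 13676 genes tested, 33.1% were called higher and 30.6% lower in Cx3cr1-NuTRAP than in Aldh1l1-NuTRAP mice, and 8 members were called higher, by 29.2-fold (Olfml3) to 94.5-fold (P2ry13), with adjusted p between 4.00e-07 and 7.22e-06. P2ry13, Gpr34, Siglech and Slc2a5 passed the filter through the Cx3cr1-NuTRAP fractions alone, which favours a higher call, and the value of P2ry13 rests on 10 to 14.2 counts in the Aldh1l1-NuTRAP fractions. Without mouse 290 the log2 fold change went from 5.82 to 6.66 for Siglech and from 6.19 to 6.79 for Selplg. In the same comparison neuron markers were higher for 9 of 9 genes (median log2 fold change 1.44), oligodendrocyte markers for 6 of 7 (1.46), oligodendrocyte precursor markers for 3 of 3 (0.93) and border-associated macrophage markers for 10 of 10 (4.74, with 9 of the 10 past the filter through the Cx3cr1-NuTRAP fractions alone), while astrocyte markers were lower for 9 of 9 (-3.24) and choroid plexus and ependyma markers for 6 of 6 (-2.26). The part of these lists in the members' values was not tested. Cst3 was lower in microglial than in astrocytic RNA, at 3357 ± 822 CPM (SD, n = 6) against 4655 ± 1780 CPM (SD, n = 3), with a log2 fold change of -0.78 (SE 0.26, adjusted p = 0.0200 by edgeR). The CPM of Cst3 overlapped between the lines, and the call was lost when counts were scaled to library totals (-0.47, adjusted p = 0.110) and without mouse 290 (-0.39, adjusted p = 0.173). Between the negative fractions of the lines, 0.125% of 13613 genes were called higher and 0.125% lower in Aldh1l1-NuTRAP mice, 0 of 9 members were called by edgeR or by DESeq2, and 1, Siglech, had an unadjusted p under 0.05 (log2 fold change 0.78, SE 0.33, and 0.16 without mouse 290), against 13.4% of all genes.

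Whether positive over negative fraction gave another ratio in each line was tested by an interaction term for 13983 genes, of which 29.9% were called higher and 25.5% lower in Cx3cr1-NuTRAP mice. The interaction was positive for 8 members, from 4.97 for Olfml3 to 6.62 for Siglech on the log2 scale, with adjusted p of at most 1.10e-07. Without mouse 290 it went from 6.22 to 6.88 for P2ry13 and from 6.06 to 6.73 for Selplg. For Cst3 it was -0.88 (SE 0.35, adjusted p = 0.0383 by edgeR), while the median over all genes was 0.11. Cst3 was thus enriched over the unbound RNA in both lines, and more so in the astrocyte line at the threshold used. That call was lost under scaling to library totals (-0.61, adjusted p = 0.117) and without mouse 155, 210, 293 or 294 (-0.76, -0.90, -0.92 and -0.90).

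Among gene families, Slc2a5, Olfml3 and Cst3 had larger fold changes than each of their tested relatives. Of the 9 other facilitative sugar transporters tested in the Cx3cr1-NuTRAP positive fraction against input, Slc2a9 was higher (log2 fold change 0.66), 4 were lower, with Slc2a12 at -1.14 the lowest, and 4 did not pass the test, among them the widely used glucose transporter Slc2a1 (-0.17). Of 5 other olfactomedins, 0 were higher and 3 were lower, Olfm2 (-0.29), Olfm3 (-0.78) and Olfml1 (-0.89). By edgeR Cstb was higher by 0.57 and Cst6 had a log2 fold change of -0.05. Of 6 other Siglecs, 5 were higher, from Siglec1 at 2.00 to Siglece at 3.46, but 4 of the 6 passed the filter through the positive fraction alone, where they are high, and Mag, the Siglec of oligodendrocyte myelin, was lower (-0.44). Of 3 other P2Y-like receptors, P2ry6 was higher at 3.49, and P2ry1 (-0.59) and P2ry14 (-0.55) were lower. Of these 3, 1 passed the filter through the inputs alone, which favours a lower call.

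**Figure D5:**
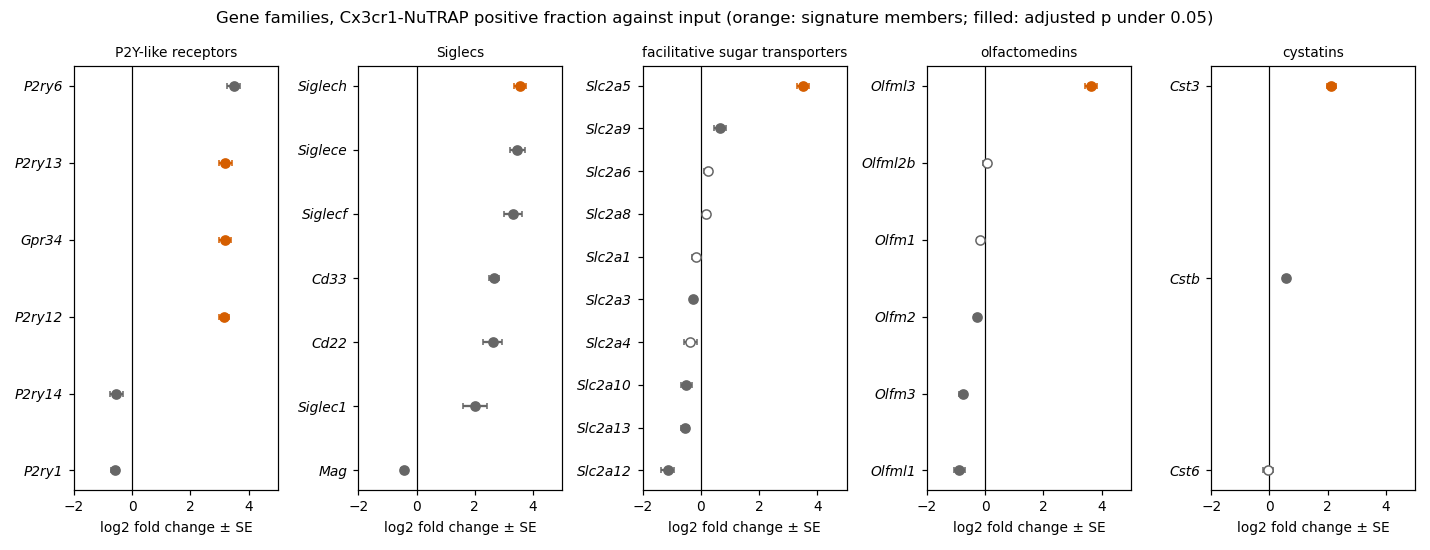
Log2 fold change with its standard error in the Cx3cr1-NuTRAP positive fraction against input for the genes tested in 5 families; orange marks the signature members and filled points had an adjusted p under 0.05. Slc2a5 (3.50), Olfml3 (3.62) and Cst3 (2.12) lie apart from their relatives, while Siglech and the purinergic receptors have relatives at similar values.

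In a wider list of 33 further homeostatic microglia genes, 29 were higher, 2 were lower and 2 did not pass the test in the positive fraction against input, with a median log2 fold change of 2.65, while the median of all genes tested was -0.00. Tyrobp, the adaptor of TREM2, was the highest at 3.92, and Mef2a (-0.74) and Gpr165 (-0.67) were lower. The median of the 9 members was 3.50. In a list of genes of activated or disease-associated microglia, 18 of 22 were tested, 12 were higher and 3 were lower (2 of the 18 passed the filter through the positive fraction alone), with a median of 0.50, from Ccl6 at 3.28 to Gpnmb at -0.57. In the Aldh1l1-NuTRAP positive against negative fraction, 20 of the 33 homeostatic genes were lower (6 of the 33 passed the filter through the negative fraction alone) and 4 were higher, of which Sparc at 2.95 and Adgrg1 at 2.38 were the furthest from the rest of the list, as Cst3 was among the members. Of 15 tested genes of the activated list, 12 were higher there and 1 was lower. Over all genes tested in that comparison, 26.8% were called higher and 24.8% lower. The lists were written with earlier results of these data known and describe these libraries.

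For each member, the genes with the most similar pattern over the 29 libraries were taken by Pearson's r of log2(CPM + 1). Among these genes were the microglia and macrophage markers Tyrobp, C1qa, Csf1r and C1qc. The most similar genes were Ly86 and Rnase4 for P2ry12 (r = 0.996 and 0.993). They were Itgb2 and Apbb1ip for P2ry13 (0.990 and 0.987), and Tyrobp and P2ry12 for Gpr34 (0.988 and 0.986). For Tmem119 they were Laptm5 and Inpp5d (0.996 and 0.994), for Siglech Fcrls and C1qa (0.987 and 0.985), for Olfml3 Unc93b1 (0.995), for Slc2a5 Laptm5 and Fcer1g (0.994 and 0.994) and for Selplg Csf1r and C1qc (0.995 and 0.993). For Cst3 they were Snx5 and Rnaset2a (0.973 and 0.972).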

How the data were processed

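TRAP-RNAseq libraries of NuTRAP mouse brain were analysed from the raw expected counts per gene that the authors deposited, made by aligning strand-specific paired-end reads to mm10 in Strand NGS and assigning them to genes. The deposited log2 values, which the authors made by DESeq normalization, were not used for any result. As 82.4% of the values above 0 were not whole (tolerance 1e-6), all were rounded before testing. Libraries were grouped by line and fraction, and 0 columns were left without a sample. A gene entered a test when all libraries of at least 1 of the groups compared exceeded 20 counts. Tests were made with edgeR 4.0.16 (R 4.3.3, TMM, glmQLFit robust, glmQLFTest, two-sided, adjusted p threshold 0.05), after a test on simulated data. Only the groups compared entered a fit, with no block for mouse. DESeq2 1.42.0, other scalings, no count filter, all groups in one fit, the mouse as replicate block and leaving out each mouse were tried.

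Fractions with the same number come from the same animal. Their deviations from the group means correlated above 0.1 in 3 of 3 Aldh1l1-NuTRAP mice. In Cx3cr1-NuTRAP mice this held for input with negative fraction in 5 of 6 animals, for the positive fraction with each of these in 3 of 6, and for input with whole tissue in 0 of 5. Plots were drawn with matplotlib 3.10.9 in Python 3.11.15. Depth limits values at few counts, and the counts carry no molecular identifiers, so counting precision is a lower bound on the error. The members and lists were chosen with earlier results of these data known. The genes named are the 9 members, the 2 genes most like each of them (1 of these is not reported here), the extremes and exceptions of each list, and the tested genes of the families.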

Additional observations from a re-analysis of the deposited data

Results flagged for a closer look

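Of 36 groups of 5 or 6 libraries tested for a sample far from the others, 7 were flagged, where chance flags about 1 group in 20. The groups share libraries and most members moved together between mice. They are therefore not independent, and 7 cannot be set against that rate. In the Cx3cr1-NuTRAP positive fractions, mouse 194 stood apart for P2ry13 (129 CPM, against 52.9 to 74.6 in the other 5) and for Olfml3 (375 CPM, against 144 to 228). In the negative fractions, P2ry12 of mouse 209 was low (18.9 CPM, against 21.4 to 22.1), Tmem119 of mouse 277 was low (18.1 CPM, against 21.4 to 22.3) and Cst3 of mouse 155 was high (1246 CPM, against 828 to 944). In whole tissue, mouse 210 was high for Siglech (18.7 CPM, against 10.2 to 12.0) and for Selplg (38.3 CPM, against 22.4 to 25.0), in the library with the fewest counts of the series.

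The ratio of positive to negative fraction differed between the Cx3cr1-NuTRAP and Aldh1l1-NuTRAP lines for 9 of 9 members by the edgeR interaction test. Over all 13983 genes tested, 29.9% were called higher and 25.5% lower in Cx3cr1-NuTRAP mice. The difference, Cx3cr1 minus Aldh1l1 on the log2 scale, was 5.07 for P2ry12, 6.22 for P2ry13, 6.20 for Gpr34, 5.44 for Tmem119, 6.62 for Siglech, 4.97 for Olfml3, 6.18 for Slc2a5 and 6.06 for Selplg. For Cst3 it was -0.88 (adjusted p = 0.0383 by edgeR), a call that was lost under scaling to library totals and without mouse 155, 210, 293 or 294.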

How the results depend on the processing

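Of the member fold changes recomputed under the alternatives, 1006 stayed on their side of the threshold, 8 passed the threshold only under an alternative, 12 lost it and 0 of the called values changed sign. With Cx3cr1-NuTRAP negative fraction against input, where the main counts are 0, DESeq2 called 1 member lower, the mouse as replicate block called 1 higher and 2 lower, and leaving out single mice called 0 to 1 higher and 0 to 2 lower (mouse 155). Over all genes, 17.7% were called higher and 19.5% lower with that block and 12.8% and 14.8% without mouse 155, against 1.41% and 4.70% in the fit reported. By DESeq2 they were 5.55% and 9.36%, and when a mouse other than 155 was left out, 0 to 3 genes were called higher and 0 lower. For input against whole tissue, leaving out single mice called 0 to 1 higher (mouse 210). For Aldh1l1-NuTRAP positive against negative fraction, leaving out single mice called 4 to 8 lower (4 without mouse 293). For the positive fractions of both lines, Cst3 was the 1 member called lower, and 0 were called lower under library totals and without mouse 290 (range 0 to 1). In the interaction, 0 were called lower under library totals, and 0 to 1 when single mice were left out. The cause was not tested. The smaller enrichment of Cst3 was called against 8 members with 6 mice and against 0 with any 5, since the exact test then allows no p under 0.0625; the differences were 0.91 to 1.56 and held in 5 of 5 mice. The block changed the call of members in negative fraction against input only, among the 7 comparisons where it could be fitted; the 2 between lines share no mice. Scaling to library totals moved the median of all genes to 0.39 for the positive fractions of both lines and to 0.38 in the interaction.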
